A study of Mus musculus with 3 samples.

Results

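The 10 genes described here store, import, export or sense iron, or release it from haem, in macrophages: Fth1, Ftl1, Ncoa4, Tfrc, Slc11a2, Slc11a1, Slc40a1, Hmox1, Ireb2 and Aco1. They were chosen by symbol from the 55536 annotated mouse genes in the tables and not by a measured value. Earlier results of these data were known when they were chosen. All 10 were found in every library. The libraries came from macrophages grown from the bone marrow of C57BL/6J mice. The cells were exposed to Lipid A, a bacterial membrane lipid sensed through Toll-like receptor 4, at 100 ng/ml for 12 h. They were then kept without it for 12 h and given 100 ng/ml again for 15 min. RNA bound to chromatin was isolated, ribosomal RNA was depleted and total RNA was sequenced. The 3 biological replicates form 1 group, so no untreated cells, other times or other fractions were compared. The labels give 1 donor identifier for all 3 libraries and do not say whether the cultures came from separate animals. Replicates 1, 2 and 3 started from 1000, 250 and 500 ng of RNA, so that starting amount and replicate cannot be told apart. All values are levels of chromatin RNA, in which fewer expressing cells and less RNA per cell cannot be told apart.

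Ferritin is a hollow shell of heavy chains, encoded by Fth1, and light chains, encoded by Ftl1, that holds iron in a safe mineral form. Macrophages take iron from transferrin through the receptor encoded by Tfrc and from the haem of engulfed red cells, which haem oxygenase 1 (Hmox1) opens. They return it to plasma through ferroportin (Slc40a1), the known exporter of iron from cells. The iron regulatory proteins encoded by Aco1 and Ireb2 bind a hairpin in messenger RNA, the iron-responsive element. When iron is scarce they block translation where the hairpin lies in the 5′ untranslated region, as in ferritin, and slow decay where it lies in the 3′ untranslated region, as in Tfrc.

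The hairpins are shown because 5 of the 10 genes hold one and because many of the transcript models counted below do not contain them. Annotated transcripts (GENCODE M21, mouse genome mm10) were searched on the transcript strand for the letters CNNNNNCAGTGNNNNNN, in which the 5 bases on each side of the loop had to pair as A with T, C with G or G with T. Each sequence is printed 5′ to 3′, with the bulged C and the loop bases CAGTGN in capitals. In the order below they lie at chr19:9982732-9982760 on the plus strand, chr7:45459779-45459807 on the minus strand, chr1:45925465-45925493 on the minus strand and chr16:32631219-32631247 on the plus strand. The last, in Slc11a2, lies at chr15:100395152-100395181 on the minus strand and was found only when 1 unpaired base was allowed in the 3′ arm.
Fth1 5′ untranslated region: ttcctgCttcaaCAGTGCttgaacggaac
Ftl1 5′ untranslated region: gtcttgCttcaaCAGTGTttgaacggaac
Slc40a1 5′ untranslated region: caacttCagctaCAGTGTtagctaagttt
Tfrc 3′ untranslated region, first site: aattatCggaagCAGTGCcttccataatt
Slc11a2 3′ untranslated region: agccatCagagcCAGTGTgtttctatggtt

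The Fth1 and Ftl1 hairpins differed at 3 of 29 bases, T1G, C4T and C18T, counted from 1 at the 5′ end with the Fth1 base first. Tfrc held 4 sites within its 3′ untranslated region, the other 3 at chr16:32631598-32631626, chr16:32631663-32631691 and chr16:32631710-32631738. In all, 4 of the 10 genes held the paired form and 5 held either form. The paired form occurred in 0.961% of 58797 protein-coding transcripts and in 1.34% of 21901 genes, and either form in 2.94% and 4.03%. No match was found in annotated transcripts of Ncoa4, Slc11a1, Hmox1, Ireb2 or Aco1. Of 60 other genes of iron metabolism, 2 held the paired form, among them Keap1, and 7 held either form.

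The libraries held 14609979, 17423948 and 24162551 expected counts in replicates 1, 2 and 3, and the 10 genes together took 0.189%, 0.171% and 0.174% of them. Their expected counts ranged from 327 to 16666 per library, which gives a counting error of 0.775% to 5.53%. For each of the 10 genes the SD of TPM over the 3 libraries exceeded the counting error of its own libraries, most narrowly for Aco1, where the SD was 5.82% of the mean. Means below are given ± SD with n = 3. The cells carried macrophage transcripts: all 8 macrophage markers listed, among them Adgre1 at 330 ± 55.6 TPM, stood at 1 TPM or more, with a summed level of 869 to 978 TPM. Of 31 markers of other cell types, 2 reached a mean of 1 TPM, Alas2 at 10.4 ± 1.78 and Zbtb46 at 1.58 ± 0.16, and 5 passed the detection rule given below. By read-based TPM the number at 1 TPM or more was 8, led by Alas2 at 24.3 ± 1.90 and Cd3d at 15.2 ± 2.43 TPM, the latter at 0.02 ± 0.03 TPM in the alignment-based table. The globin gene Hba-a1 was listed at 0 in every library.

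All 10 genes were detected, meaning a mean expected count of at least 10, and all 10 stood above the median of the 11755 detected protein-coding genes. Their median level was 6.12 ± 0.05 on the log2(TPM + 1) scale, beside 3.43 ± 0.03 for detected protein-coding genes, and 6 of the 10 lay in the highest 10% of those genes. TPM is a level divided by transcript length and scaled to the same sum in each library. Comparisons of genes on it depend on that division, and some of the ratios below turned without it. Mean levels ran from 871 TPM for Fth1 to 17.3 TPM for Aco1. Of the 9 steps in the order of mean levels, 5 separated genes whose libraries did not overlap. Fth1 lay above Ftl1, Ftl1 above Slc11a1 and Slc11a1 above Slc11a2, and further down Ncoa4 lay above Slc40a1 and Ireb2 above Hmox1. Slc11a2, Tfrc and Ncoa4 followed each other with overlapping libraries, as did Slc40a1 and Ireb2, and Hmox1 and Aco1.

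**Figure D1:**
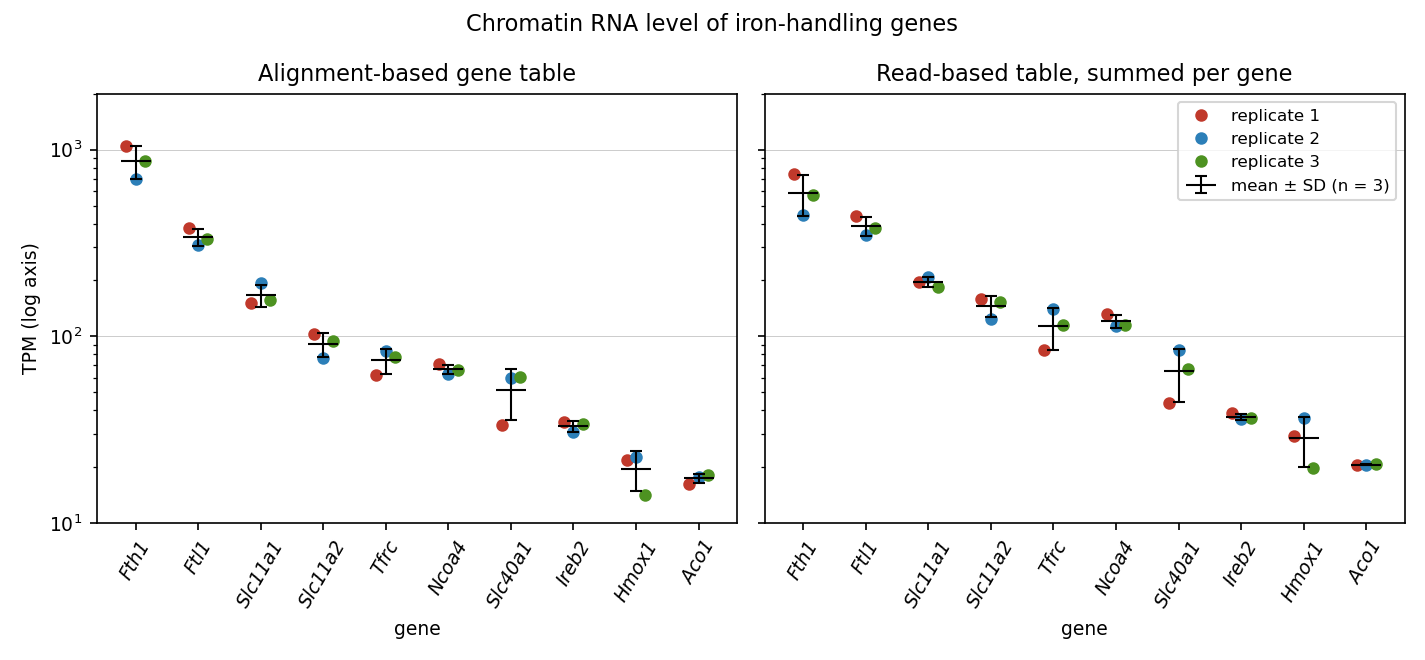
TPM of the 10 genes (log axis) in each library in the alignment-based gene table (left) and in the read-based table summed per gene (right). Points are libraries and bars are the mean ± SD over 3; Fth1 is highest in both tables, at 871 and 586 TPM, and Aco1 is lowest, at 17.3 and 20.5 TPM.

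The 2 ferritin chains led the set. Fth1, the heavy chain gene with the ferroxidase centre (ENSMUSG00000024661.7, chromosome 19, 9980598 to 9985098, plus strand), had 1043, 697 and 872 TPM in replicates 1, 2 and 3. Its mean of 871 ± 173 TPM ranked 15 among detected protein-coding genes, and its read-based mean ranked 38. Ftl1, the light chain gene that aids mineral growth in the shell (ENSMUSG00000050708.16, chromosome 7, 45457944 to 45459884, minus strand), had 379, 308 and 331 TPM, with a mean of 339 ± 36.6 and rank 81. Both chains were highest in replicate 1 and lowest in replicate 2. Together they took 0.108%, 0.0760% and 0.0851% of expected counts in the 3 libraries.

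Heavy chain RNA exceeded light chain RNA in every library, by 2.75-fold, 2.27-fold and 2.64-fold, or 1.35 ± 0.15 on the log2 scale. In the read-based table, made directly from the same reads, the ratios were 1.68, 1.28 and 1.51, or 0.56 ± 0.20. The direction held and the size fell. Fth1 was the only gene of the 10 with a lower mean in the read-based table, at 0.669 ± 0.0364 of its alignment-based TPM. Only 0.775% of 11740 detected protein-coding genes had a ratio as low, and 22.2% lay below 1. Ftl1 was 1.15 ± 0.0141 times higher in the read-based table, where all detected genes had a median ratio of 1.29.

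Ferritin has many processed copies in the mouse genome, which can share reads with the parent genes. Genes with at least 90% identity over at least 50% of the reference transcript numbered 7 for Ftl1, of which 3 had counts, and these held 2.59% ± 0.82 of the joint counts. The closest, Ftl1-ps1, had 3.23, 6.86 and 5.15 TPM. The only such copy of Fth1, Gm6977, had 0 counts. Fth-ps2, another locus of the family, had 7.02, 5.54 and 5.03 TPM. Ftl1 also overlaps Gm10252 on the opposite strand by 416 bases. That gene had 212, 112 and 138 expected counts, and whether reads were assigned by strand was not given in the sources used here.

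Ncoa4, the receptor that carries ferritin to lysosomes for breakdown (ENSMUSG00000056234.15, chromosome 14, 32159865 to 32179855, plus strand), was steady. It had 70.6, 63.0 and 65.6 TPM, a mean of 66.4 ± 3.89, and its highest library was 1.12 times its lowest. The read-based table gave 120 ± 10.3 TPM. Its copy Gm6768 held 2.11% ± 0.46 of the joint counts.

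Of the 3 import genes in the set, the transporter of phagosome membranes had the highest gene level. Slc11a1, which encodes NRAMP1 and moves divalent metals out of the phagosome (ENSMUSG00000026177.11, chromosome 1, 74375195 to 74386062, plus strand), had 151, 192 and 156 TPM, with a mean of 166 ± 22.3 and rank 266. Slc11a2, which encodes DMT1, the carrier of ferrous iron out of endosomes (ENSMUSG00000023030.16, chromosome 15, 100387898 to 100425072, minus strand), had 103, 76.0 and 94.5 TPM and a mean of 91.0 ± 13.6. Slc11a2 also overlaps Gm5475 on the opposite strand by 2926 bases, and that gene had 117, 93 and 177 expected counts. As for Ftl1, strand assignment of the reads was not given. The libraries of the paralogs Slc11a1 and Slc11a2 did not overlap, and Slc11a1 was 1.47, 2.52 and 1.65 times higher than Slc11a2. The log2 ratio was 0.87 ± 0.41, and 0.44 ± 0.27 in the read-based table. Without division by length it was -0.57, since Slc11a2 models are longer, so the order of the gene levels holds per length only. It also turned when only protein-coding models were summed, to 29.1, 25.1 and 28.2 TPM for Slc11a1 and 82.1, 58.9 and 77.6 TPM for Slc11a2. The read-based sums were 23.1, 18.1 and 20.5 TPM against 102, 83.4 and 104 TPM. Part of the Slc11a1 gene level lay in Slc11a1-206, a short model of 378 nt. That model had 50.5, 74.4 and 65.6 TPM, or 38.1% ± 4.39 of the gene, on 110, 159 and 184 expected counts. By expected counts its share was 6.54% ± 0.60, and in the read-based table it held 25.8% ± 1.72 of TPM.

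Tfrc, the transferrin receptor gene (ENSMUSG00000022797.16, chromosome 16, 32608920 to 32632794, plus strand), had 61.8, 83.7 and 77.0 TPM and a mean of 74.1 ± 11.2. Replicate 1 was the lowest and replicate 2 the highest. The read-based table gave 84.2, 141 and 114 TPM, in the same order.

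Ferroportin RNA varied most among the 10 genes. Slc40a1 (ENSMUSG00000025993.10, chromosome 1, 45908068 to 45926523, minus strand) had 33.3, 59.8 and 60.5 TPM, with a mean of 51.2 ± 15.5. Replicate 1 stood apart at the low end, and replicates 2 and 3 were nearly level. The highest library was 1.82 times the lowest, and this fold lay between 1.72 and 1.93 over the 5 scalings tried. In the read-based table the values were 43.8, 84.7 and 66.5 TPM. Tfrc exceeded Slc40a1 by 1.86-fold, 1.40-fold and 1.27-fold in the 3 libraries, a log2 ratio of exporter to receptor of -0.58 ± 0.28. The libraries of the 2 genes lay close, with the lowest of Tfrc at 61.8 and the highest of Slc40a1 at 60.5 TPM. Markers of stromal cells were also lowest in replicate 1: 2 of 4 were detected, Col1a1 with 1, 38 and 47 expected counts and Col3a1 with 0, 25 and 32. Their summed level was 0.01, 1.48 and 0.72 TPM, Pdgfra was listed at 0, and their part in the pattern of Slc40a1 and Tfrc was not tested. On counts not divided by length the ratio of exporter to receptor turned to 0.25, so this order too rests on the length scaling.

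Hmox1 (ENSMUSG00000005413.8, chromosome 8, 75093621 to 75100589, plus strand) had 21.8, 22.6 and 14.1 TPM and a mean of 19.5 ± 4.71. Replicate 3 was the low library, at 327 expected counts, and the highest library was 1.61 times the lowest. In the read-based table it had 29.2, 36.6 and 19.7 TPM, again lowest in replicate 3. Hmox2, the constitutive haem oxygenase, had 19.3, 17.5 and 22.1 TPM, and its libraries overlapped those of Hmox1.

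The 2 iron sensors had a narrow spread by TPM. Ireb2, which encodes iron regulatory protein 2 and is controlled by breakdown of the protein (ENSMUSG00000032293.8, chromosome 9, 54863789 to 54912530, plus strand), had 34.5, 30.5 and 33.7 TPM and a mean of 32.9 ± 2.11. Aco1, which encodes iron regulatory protein 1, a cytosolic aconitase when it holds its iron-sulfur cluster (ENSMUSG00000028405.9, chromosome 4, 40143081 to 40198338, plus strand), had 16.2, 17.6 and 18.1 TPM and a mean of 17.3 ± 1.01. The highest library of Aco1 was 1.12 times the lowest by TPM, but 1.29 times under TMM scaling. Ireb2 exceeded Aco1 in every library, by 2.13-fold, 1.73-fold and 1.87-fold. The log2 ratio of Aco1 to Ireb2 was -0.93 ± 0.15, and -0.85 ± 0.06 in the read-based table.

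The 4 ratios above were taken within each library, so library scaling cancels. No test was made on them, because 3 libraries cannot give an exact two-sided sign-flip p below 0.25.

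Across libraries the genes did not move as one. By TPM, 5 of 10 were highest in replicate 1 (Fth1, Ftl1, Ncoa4, Slc11a2 and Ireb2), beside 38.9% of the 15873 detected genes. Another 3 were highest in replicate 2 (Tfrc, Slc11a1 and Hmox1), beside 28.7%, and 2 in replicate 3 (Slc40a1 and Aco1), beside 31.7%. With so few genes these counts are near the background. Under count scaling with TMM or DESeq2 size factors the counts became 2, 5 and 3. In all 5 scalings Fth1 and Ftl1 were highest in replicate 1 and lowest in replicate 2, Tfrc was lowest in replicate 1 and highest in replicate 2, Slc40a1 was lowest in replicate 1, and Hmox1 was lowest in replicate 3. The highest library of Ncoa4, Ireb2, Slc11a2, Aco1, Hmox1 and Slc40a1 changed with the scaling. That of Slc40a1 was replicate 3 by TPM and replicate 2 in the other 4 scalings. The median SD of the 10 genes was 0.20 on the log2(TPM + 1) scale, beside 0.16 for all detected genes. With replicate 1, 2 or 3 left out it was 0.09, 0.12 and 0.23, each over 2 libraries. No such values are given here for all detected genes.

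**Figure D2:**
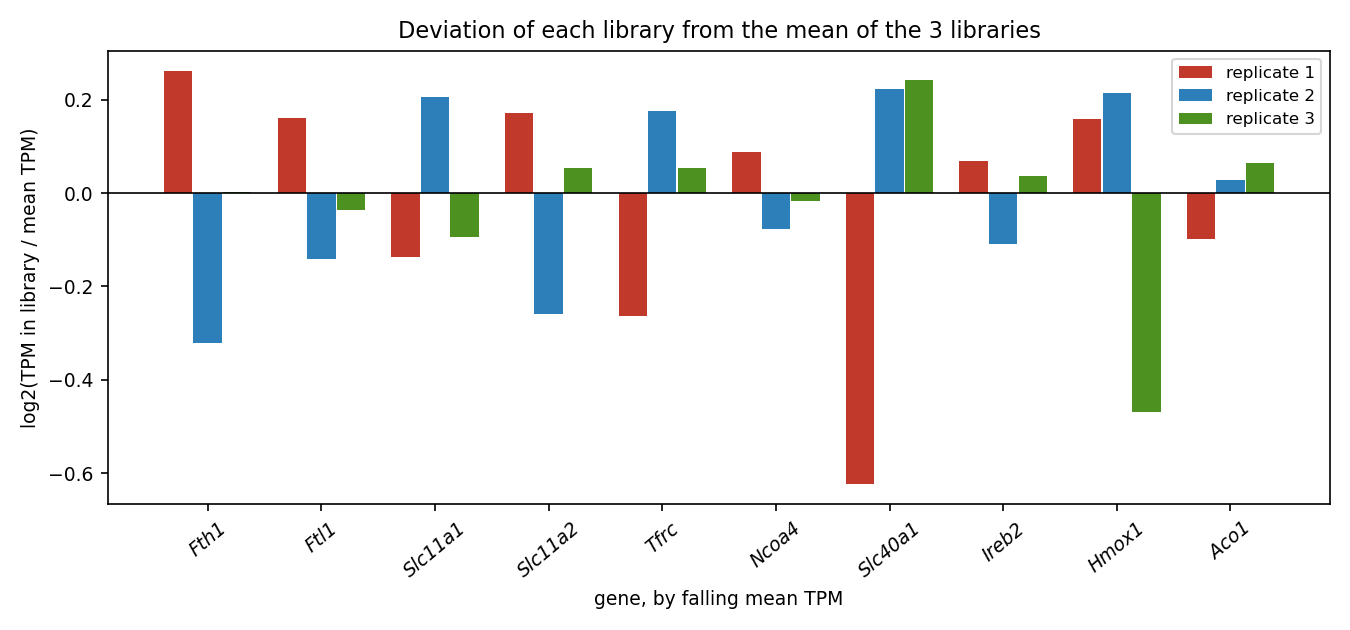
Deviation of each library from the mean of the 3 libraries, as log2 of the ratio of TPM, for the 10 genes by falling mean level. Bars are single libraries; replicate 1 stands above the mean for Fth1 (1043 against 871 TPM) and Ftl1 and below it for Tfrc and Slc40a1 (33.3 against 51.2 TPM), and replicate 3 is the low library of Hmox1.

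Inflammatory genes also differed between the libraries and are given beside these values. Acod1, which makes itaconate, had 362, 117 and 181 TPM and Tnf had 177, 51.6 and 74.2 TPM in replicates 1, 2 and 3. Of the 6 detected genes on the list of inflammatory iron withholding, 5 were highest in replicate 1, beside 38.9% of all detected genes. The other, Il1b, was lowest in replicate 1, with 13.9, 17.55 and 19.2 TPM. The summed level of the list was 564, 190 and 279 TPM, most of it from Acod1 and Tnf. The part of these inflammatory genes in the pattern of Fth1, Ftl1, Tfrc and Slc40a1 was not tested.

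The transcript tables divide each gene's RNA among annotated models, and for Fth1 most of it fell on models that keep intron sequence. For Fth1, models annotated as retained intron took 91.9%, 91.9% and 89.5% of TPM, a mean of 91.1% ± 1.42, and 93.2% ± 0.79 in the read-based table. Only 1.79% of 6584 genes with such a model, a protein-coding model and a mean of at least 1 TPM had a share as high. Fth1-202 with intron 2 took 34.6% ± 0.84, Fth1-208 with intron 1 took 31.2% ± 0.49 and Fth1-207 with intron 3 took 24.1% ± 1.01. The fully spliced coding model Fth1-201 had 28.1, 30.9 and 46.0 TPM. Each whole intron was thus held by a different model, and the tables do not show which introns lie in the same molecule.

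**Figure D3:**
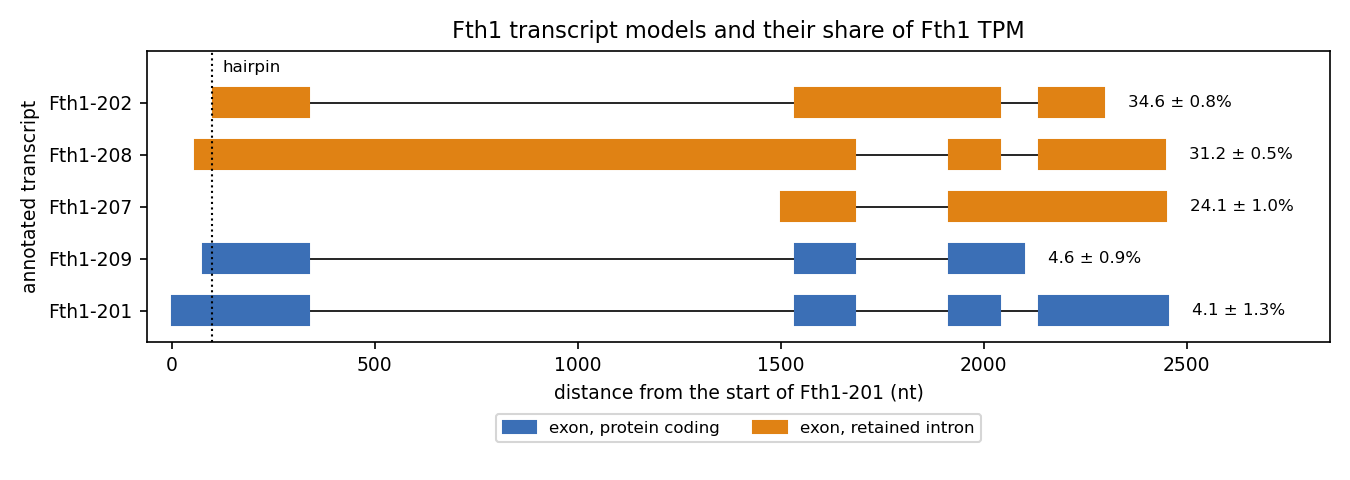
Fth1 transcript models with at least 2% of Fth1 TPM, drawn to scale against the distance from the start of Fth1-201 in nucleotides. Boxes are exons, thin lines introns and the dotted line the iron-responsive hairpin; numbers are the mean share of Fth1 TPM ± SD over 3 libraries, and the 3 retained-intron models (orange) hold 34.6%, 31.2% and 24.1%.

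For Ftl1 the retained-intron models held 53.9% ± 0.95 of TPM and 63.0% ± 2.82 in the read-based table. The 2 models, Ftl1-205 and Ftl1-206, reach into intron 1 and intron 2 and hold neither in full. By expected counts the share was 43.7% ± 0.88, and protein-coding models then held 52.7% ± 2.09. The coding model Ftl1-201 held 43.1% ± 1.87 and 15.0% ± 1.91 in the 2 tables, while Ftl1-202, a model marked for nonsense-mediated decay, held 3.05% ± 1.36 and 22.0% ± 4.70. Those 2 models share most of their sequence, and in replicate 1 the authors' deposited posterior SD was 83.2 counts on 1502 for Ftl1-201 and 81.3 counts on 156 for Ftl1-202. When only protein-coding models were summed, the order of the chains turned. Ftl1 then had 158, 130 and 149 TPM against 84.4, 56.2 and 91.8 TPM for Fth1. In the read-based table the sums were 57.3, 58.7 and 57.4 TPM for Ftl1 and 51.0, 26.9 and 43.4 TPM for Fth1. The excess of Fth1 over Ftl1 at the gene level therefore lay in models annotated as retained intron.

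Of the 9 genes of the set with a retained-intron model, 4 had more than 50% of TPM in such models, beside 44.5% of the 6584 genes. These 4 were Fth1, Ftl1, Tfrc and Slc40a1. By read-based TPM the number was 2, Fth1 and Ftl1, beside 43% of the 6584 genes. By expected counts, which weigh long models more, the number was again 2, beside 29.6% of the 6584 genes. These were Fth1 at 95.2% ± 0.80 and Slc40a1 at 66.6% ± 2.23. The median share over the 9 was 35.6% of TPM against 46.8% over all 6584 genes, but 43.2% of expected counts against 30.2%, so its side of the background depended on the quantity. Tfrc held 68.1% ± 9.32 in the alignment-based table and 34.3% ± 9.24 in the read-based one, and Slc40a1 64.2% ± 2.80 and 38.5% ± 2.87. The difference between the tables went with short models. Tfrc-203, of 166 nt, took 2.83% ± 4.90 of TPM in the first and 39.7% ± 7.90 in the second, and Slc40a1-207, of 263 nt, took 0% and 32.9% ± 7.76.

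Tfrc also changed across libraries in this respect: the retained-intron share was 77.8%, 67.4% and 59.2% in replicates 1, 2 and 3, and 44.8%, 30.6% and 27.4% in the read-based table. Replicate 1, in which Tfrc was lowest, had the highest share in both tables. Its coding models had 13.7, 27.3 and 31.4 TPM. In replicate 3, 6.53 of these TPM came from 1 expected count on Tfrc-203. Without that model the shares were 77.8%, 67.4% and 64.7%, or 64.6%, 53.7% and 50.2% in the read-based table, and the coding sums were 13.7, 27.3 and 24.9 TPM. For Slc40a1 the retained share was nearly level at 64.7%, 66.7% and 61.2%. Its coding model Slc40a1-201 had 11.5, 19.9 and 22.5 TPM and its intron-holding model Slc40a1-208 had 15.7, 30.4 and 28.3 TPM, both lowest in replicate 1.

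The remaining genes had lower shares in the alignment-based table, at 35.6% ± 5.34 for Slc11a1, 34.9% ± 3.67 for Ireb2, 28.1% ± 3.44 for Ncoa4, 15.6% ± 3.13 for Hmox1 and 9.34% ± 1.59 for Slc11a2. Aco1 has no annotated retained-intron model. Its 3 models of the type processed transcript reach into introns of Aco1-201, however. They held 56.7% ± 3.92 of TPM and 63.7% ± 5.19 in the read-based table, but 9.29% ± 2.17 of expected counts. The coding model Aco1-201 had 6.49, 8.41 and 7.62 TPM. Hmox1, the shortest gene of the 5, had 84.4% ± 3.13 of its TPM in the spliced model Hmox1-201, and 66.4% ± 4.34 in the read-based table. The share of Ncoa4 fell to 11.6% ± 1.31 and that of Hmox1 rose to 33.6% ± 4.34 in the read-based table, so the order of these genes depended on the quantification. In the alignment-based table, 13.3% ± 1.56 of Ncoa4 TPM lay on Ncoa4-212, a retained-intron model of 1 exon. That model covers no intron base of Ncoa4-201.

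**Figure D4:**
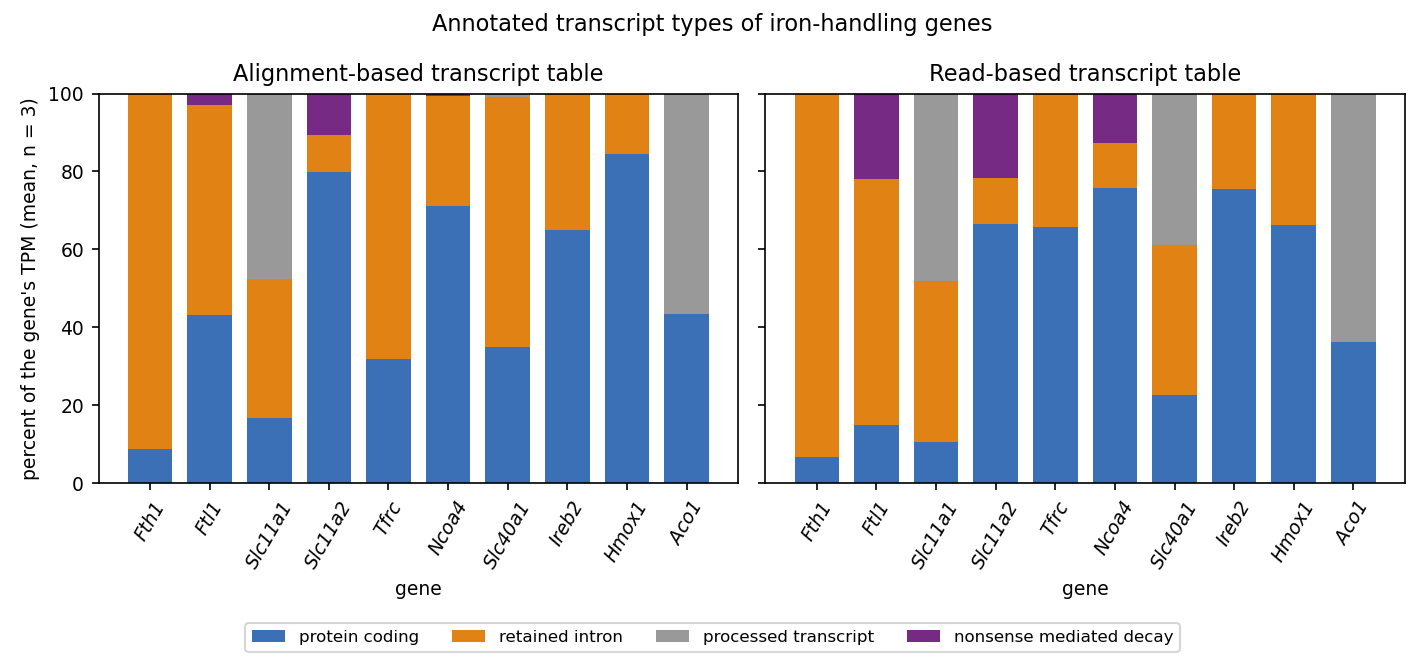
Percent of each gene's TPM in each annotated transcript type (mean of 3 libraries) in the alignment-based (left) and read-based (right) transcript tables. Retained-intron models (orange) hold 91.1% and 93.2% of Fth1 and 53.9% and 63.0% of Ftl1, whereas for Tfrc they hold 68.1% on the left and 34.3% on the right.

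Models that contain the hairpins printed above held only part of the TPM of Fth1, Ftl1, Tfrc and Slc11a2. By expected counts, which weigh long models more, the shares of these genes were higher. Among models with the hairpin, Fth1-208 alone then held 59.0% ± 1.05 of Fth1 and Ftl1-201 held 52.7% ± 2.09 of Ftl1. For Fth1, 5 of 9 transcripts contain the hairpin, and these held 40.1% ± 1.85 of TPM and 39.7% ± 1.20 in the read-based table. Fth1-202 and Fth1-207 do not contain the whole hairpin. For Ftl1, 2 of 6 transcripts contain it, with 46.1% ± 0.95 and 37.0% ± 2.81 of TPM. The hairpin of Slc40a1 lies in 3 of 8 transcripts, which held 99.2% ± 0.84 of TPM in the alignment-based table but 61.2% ± 6.27 in the read-based one.

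The 3′ hairpins were carried by shares of TPM that overlapped those of Fth1 in the alignment-based table and lay lower in the read-based one. By expected counts, Tfrc-201 and Tfrc-204, which hold the Tfrc sites, had 48.5% ± 10.4 and 31.8% ± 5.36 of the gene. For Tfrc, 2 of 7 transcripts hold the 4 sites, with 31.6%, 38.1% and 42.5% of TPM in replicates 1, 2 and 3, and 18.1% ± 1.80 in the read-based table. Of the 8 transcripts of Slc11a2, 1 has the 3′ untranslated region with the hairpin. This model, Slc11a2-205, had 37.2, 29.8 and 36.7 TPM, or 38.1% ± 1.56 of the gene, and 23.6% ± 1.59 in the read-based table. Slc11a2-201, without the hairpin, held 22.2% ± 2.36 and 16.3% ± 0.76. By expected counts Slc11a2-205 held 67.5% ± 0.69 and Slc11a2-201 held 26.2% ± 1.55. These shares follow the annotated models, some of which, such as Fth1-202, start or end short of the reference model.

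Other genes of iron metabolism gave the setting of the 10. Of the 60 listed in 7 groups, 47 were detected and 43 had a mean of at least 1 TPM. Of these 47, 16, 10 and 21 were highest in replicates 1, 2 and 3, beside 38.9%, 28.7% and 31.7% of all detected genes. Among storage and turnover genes, 5 of 6 were detected, led by the iron chaperone Pcbp2 at 134 ± 18.7 TPM and the autophagy gene Atg7 at 60.2 ± 8.11, while mitochondrial ferritin (Ftmt) was listed at 0. Among import genes, 6 of 11 were detected, led by Lrp1, the receptor of haem bound to haemopexin, at 286 ± 10.9 TPM and the lysosomal channel gene Mcoln1 at 75.5 ± 5.83, and the metalloreductase gene Steap4 was listed at 0.

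In the export group 1 of 4 was detected. Cp, which encodes ceruloplasmin, the ferroxidase that works with ferroportin, had 175, 120 and 102 TPM, highest in the library in which Slc40a1 was lowest. Its homologue Heph and the hepcidin paralog Hamp2 were listed at 0. Among haem genes, 11 of 12 were detected. The haem exporter gene Flvcr1 had 40.8 ± 6.50 TPM, Bach1, the haem-sensing repressor of Hmox1, had 39.7 ± 3.27, and haptoglobin (Hp) was near 0 at 0.16 ± 0.18. Among sensing genes, 6 of 7 were detected, with Nfe2l2, an activator of ferritin and ferroportin genes, at 105 ± 26.2 TPM and Fbxl5, the ubiquitin ligase subunit that removes iron regulatory protein 2, at 44.4 ± 2.73, both above Ireb2 and Aco1, while Epas1 had 0.06 ± 0.06. In the mitochondrial group, 12 of 13 were detected, led by the iron importer gene Slc25a37 at 57.6 ± 4.49 TPM. In the inflammatory group, 6 of 7 were detected, and lactoferrin (Ltf) was listed at 0.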

How the data were processed

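Chromatin RNA of macrophages was sequenced in 3 libraries of 1 group, taken from the labels. The authors deposited expected counts and TPM per gene and per transcript from transcriptome alignments, and estimated counts and TPM per transcript made directly from reads, on mm10 with GENCODE M21, per the file headers and the text deposited with them. The posterior SD of each count is another value the authors deposited. Tools and versions are not given in the sources used here. Rows that name no gene held 1.24%, 0.482% and 0.228% of expected counts. TPM of the gene table was used as deposited, with log2(TPM + 1) for medians and SDs. Read-based TPM was summed per gene. Genes with a mean of at least 10 expected counts were called detected. No condition was compared and no test across genes was run. Alternatives were the read-based table, TPM rescaled without features under 200 nt and ribosomal loci, expected counts rounded and scaled by TMM (edgeR 4.0.16) or DESeq2 1.42.0 size factors, CPM, a pseudocount of 0.1, a stricter or no count filter, and each library left out. A count of 0 in the shallowest library allows up to 2.05e-05% of counts, which covers counting error only. Copies of each gene were searched with BLAST 2.17.0. The scripts were tested on simulated data. Named genes were the 10 genes, the 2 highest and the lowest of each list, transcripts with at least 20% of a gene's TPM in either table, and ferritin loci that averaged 10 counts or more. A few names that the rule gives are not reported here. The genes, lists and ratios were chosen with earlier results of these data known.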

Additional observations from a re-analysis of the deposited data

How the results depend on the processing

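No paired analysis was possible because the 3 libraries form 1 group. The median level of the 10 genes moved from 6.12 to 6.83 in the read-based table and to 7.03 in TPM rescaled without short and ribosomal features, where the median over detected genes moved by 0.35 to 0.38 and by 0.86 to 0.97. The log2 ratio of Fth1 to Ftl1 was 0.56 in the read-based table and 2.04 in CPM without length scaling. That of Slc11a1 to Slc11a2 was 0.44 in the read-based table and reversed to -0.57 in CPM. In CPM, Aco1 to Ireb2 was -2.39 and Slc40a1 to Tfrc reversed to 0.25. With both TMM and DESeq2 scaling, 2 genes were highest in replicate 1 and 5 in replicate 2. In replicate 3, 1 gene was highest in the read-based table and 0 in rescaled TPM. The retained-intron share of Fth1 was 93.2% in the read-based table and 95.2% of expected counts, an alternative chosen after seeing the data, as was leaving out Tfrc-203. The cause of these moves was not tested, apart from length in CPM. The median SD ran from 0.09 to 0.23 when 1 library was left out. Of the 10 mean levels, 1 stayed within 1 SD in the read-based table, that of Slc40a1, and 0 in rescaled TPM. Depth did not limit the gene values, since the lowest count was 327, but several transcript models rest on few counts or on shared sequence.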

Other observations

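Some loci near the iron genes gave values that depended on the table. Tfr2, the second transferrin receptor, was listed at 0 in all 3 libraries of the alignment-based gene table but had 10.1, 9.96 and 8.29 TPM in the read-based table. It was chosen after its values were seen. Of 14 loci besides the parent genes whose symbols mark them as ferritin heavy or light chain relatives, 11 had 0 expected counts in every library, and among them were all 6 coding Fthl17 genes of the X chromosome. Ftl1-ps1 had 29.4, 73.7 and 70.7 expected counts and was lowest in replicate 1, the library in which Ftl1 was highest. Its sequence is 99.6% identical to Ftl1 over 94.0% of the reference transcript, so the division of reads between them is uncertain. Alas2, the erythroid enzyme of haem synthesis, had 11.9, 8.44 and 11.0 TPM, while the erythroid factor gene Klf1 had a mean of 0.07 TPM.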
